A study of Mus musculus with 28 samples.

Results

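The glandular distal stomach was compared with the small intestine in wild-type Balb/c mouse fetuses at embryonic day 18 (E18). The comparison rests on 4 of the 28 arrays of the series, taken by their labels alone: 2 of wild-type distal stomach and 2 of wild-type small intestine, replicates 1 and 2 of each. RNA levels were read on Affymetrix mouse arrays, on which each probe set gives 1 log2 value per array, and 13612 genes could be tested. The series was built around p63, the product of Trp63, and holds bladder and 4 regions of the digestive tract, labelled p63 knockout or wild type, with 2 arrays in each of 14 groups. Beside the 4 arrays of the comparison, values of 8 others are given here, all Balb/c at E18: distal stomach and small intestine labelled p63 knockout, and wild-type proximal stomach and large intestine. The estimate of spread behind each SE and p-value came from all 28 arrays, bladder at E15, E18 and E19 among them. The labels do not give the knockout allele, the cut points along the gut or how many animals were used. They also do not say whether the 2 arrays of a group come from separate animals. The p-values thus measure only the spread between these samples, which may be technical in part. In the 2 wild-type tissues compared, that spread also holds a difference in sex-linked transcripts between replicates 1 and 2, given below. The labels name tissues and no cell sorting. In such tissue RNA, fewer cells of a type and less RNA per cell cannot be told apart.

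In the mouse, a columnar epithelium covers the distal stomach; its surface cells secrete protective mucus and its glands make acid and pepsinogens, while the small intestine carries villi covered by absorptive enterocytes with scattered goblet and endocrine cells. Both linings arise from one endodermal tube. Sox2 and Barx1 are known for the stomach side of that tube and Cdx1 and Cdx2 for the intestinal side, and the pylorus is where the territories meet.

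The 2 distal stomach arrays correlated across genes at 0.982 and the 2 small intestine arrays at 0.988, and the SD of the difference between the arrays of a pair was 0.398 and 0.318. Differences between the 3' and 5' probe sets of actin, a sign of RNA quality, were 0.63 and 0.77 in distal stomach and 0.56 and 0.54 in small intestine. The Y-linked Eif2s3y read 12.01 on replicate 1 of both tissues and 4.20 and 4.43 on replicate 2. Sex, read this way, was balanced over the wild-type tissues, and the 2 arrays of each came from different animals or pools. On the arrays labelled knockout Eif2s3y read 11.89 and 12.03 on replicate 1 of distal stomach and small intestine and 4.16 and 4.06 on replicate 2. The X-linked Xist, however, read 13.66 and 13.14 on wild-type replicate 2 but 6.16 and 6.05 on replicate 2 labelled knockout. The reason was not tested. Trp63 itself read 7.03 and 7.20 in wild-type distal stomach and 7.38 and 8.73 on the distal stomach arrays labelled knockout, and 5.68 and 5.75 against 6.09 and 5.80 in small intestine. Since this probe set was not lower on the arrays labelled knockout, and its place relative to the deleted part is not given, those arrays are called by their label throughout.

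Transcripts of neighbouring organs were uneven among the arrays. Wild-type small intestine replicate 2 carried more pancreatic RNA than replicate 1: Ctrb1, the digestive enzyme precursor chymotrypsinogen B, read 12.80 against 8.47, and 10 of 10 pancreas genes outside the goblet gene Zg16 and the gut-expressed Spink1 were higher in replicate 2 (summed linear level 15458 against 1866, with 2462 and 2371 in distal stomach; this trimmed set was chosen after its values were seen). The same array was higher for 14 of 17 gastric surface genes, with a mean log2 level of 6.92 against 6.03. Wild-type distal stomach replicate 2 was higher for 7 of 9 liver genes, among them albumin, with Alb at 10.69 against 6.23. Squamous genes of the proximal stomach, Krt5, Krt13 and Krt14, stayed between 5.58 and 7.60 on all 4 arrays, whereas their wild-type proximal stomach means were 14.05, 14.64 and 12.50. Of the 19 squamous genes tested, 3 others were higher in distal stomach than in small intestine: Krt15 (9.07 and 10.41 against 7.30 and 7.34), Dsc3 and Trp63. Over all genes tested, 19.5% were called higher in distal stomach. The part of these transcripts in the results was not tested. Where an array of this kind decides a call, the value without it is given beside some of the results but not all. A count of list members given without such a value may also depend on 1 array.

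**Figure D1:**
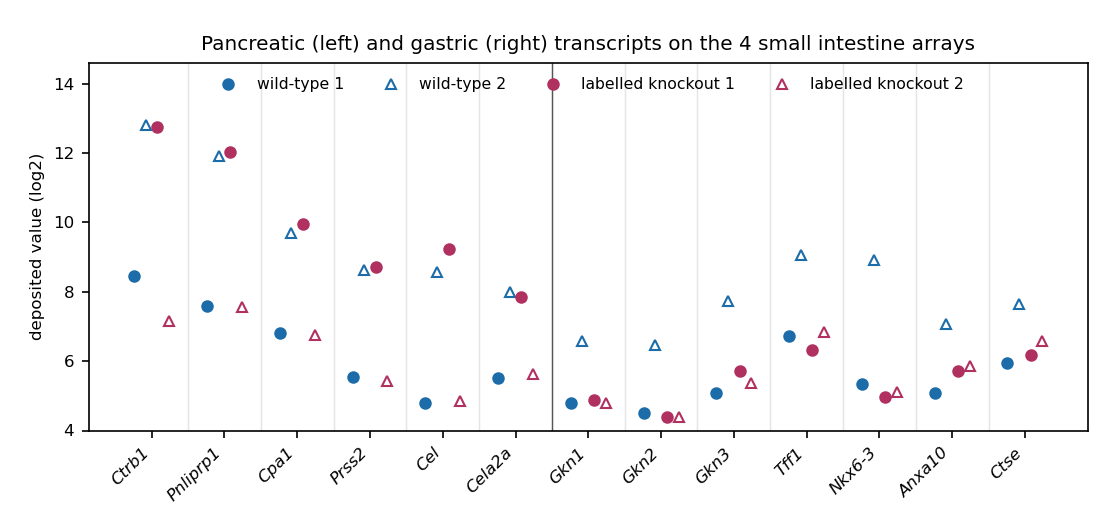
Deposited log2 values (y axis) of 6 pancreatic and 7 gastric transcripts on the 4 small intestine arrays, with circles for replicate 1, triangles for replicate 2, blue for wild type and red for arrays labelled knockout. Wild-type replicate 2 and labelled-knockout replicate 1 are high in the pancreatic transcripts, and wild-type replicate 2 alone stands above the other 3 arrays in each of the 7 gastric transcripts.

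In the wild-type comparison limma called 2648 genes higher in distal stomach, 19.5% of those tested, and 2554 genes lower, 18.8%, at an adjusted p under 0.05. Together 38.2% of all genes were called, so a call alone does not set a gene apart, and the size of a difference matters more. Counts of list members called are to be read beside these shares. A difference of 1 on the log2 scale is 2-fold. Of all genes, 921 (6.77%) were called and at least 2-fold higher in distal stomach and 1214 (8.92%) at least 2-fold higher in small intestine. At the stricter size of 4-fold, 307 (2.26%) were higher in distal stomach and 536 (3.94%) in small intestine. The 2 arrays of one tissue lay wholly above those of the other for 68.1% of all genes tested, so a lack of overlap does not set a gene apart either. The median difference over all genes was 0.06. Without small intestine replicate 1 the number of genes called higher in distal stomach was 1573.

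The expression of 17 genes of gastric mucous and surface cells was higher in distal stomach without exception, with a median difference of 5.98. Gastrokine 1 (Gkn1), a secreted protein of surface mucous cells, had the largest difference on this side when each gene was read from its brightest probe set: it read 14.61 and 14.22 in distal stomach and 4.79 and 6.58 in small intestine, a difference of 8.73 (SE 0.72, limma adjusted p = 3.7e-09). Its partner Gkn2 read 14.06 and 13.55 against 4.51 and 6.46, a difference of 8.32. Both genes were high on the 2 stomach arrays and low on the 2 intestinal ones, with no overlap, and within the intestine replicate 2 was the higher array for each.

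The trefoil peptides, small secreted proteins that protect and repair mucosa, divided between the tissues. Tff1 read 14.30 and 14.11 in distal stomach and 6.74 and 9.05 in small intestine (difference 6.31, SE 0.54, adjusted p = 6.7e-09). Tff2 read 12.79 and 12.55 against 7.88 and 8.67 (difference 4.39, SE 0.26). Tff3, the goblet cell member, ran the other way at 9.21 and 9.50 against 14.22 and 14.14 (difference -4.83, SE 0.20, adjusted p = 6.9e-14). None of the 3 overlapped between the tissues, nor did 68.1% of all genes tested. The secreted gastric mucin Muc5ac followed the stomach members, reading 9.57 and 9.75 against 6.11 and 6.03 (difference 3.60, SE 0.19, adjusted p = 2.5e-12).

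Other surface genes showed the same division with lower levels in intestine. Anxa10, an annexin, differed by 8.03, and Cldn18, the tight junction claudin of the stomach, by 7.30. Psca, a cell surface antigen, differed by 7.03 and Ctse, the aspartic protease cathepsin E, by 6.72, although a second Ctse probe set differed by only -0.26. Anxa10 and Ctse were again higher on small intestine replicate 2 (7.06 and 7.64) than on replicate 1 (5.07 and 5.96). With small intestine replicate 1 left out the median of the 17 genes was 5.15, and with replicate 2 left out it was 6.31.

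**Figure D2:**
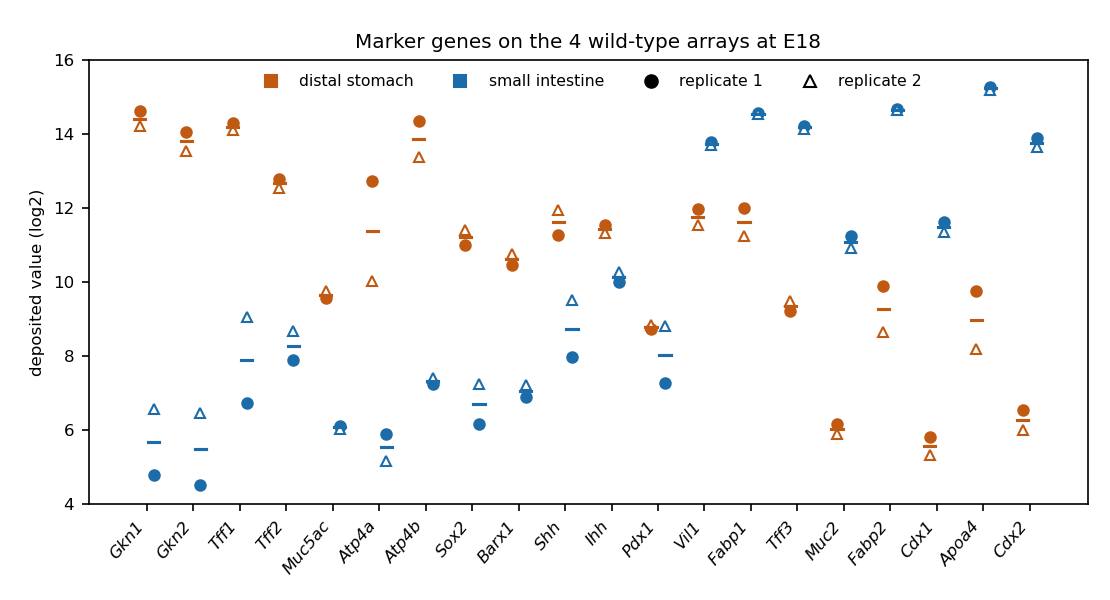
Deposited log2 values (y axis) of 20 marker genes on the 4 wild-type arrays at E18; orange marks distal stomach, blue small intestine, circles replicate 1, open triangles replicate 2, and bars the group means. The tissues do not overlap for 19 of the genes, beside 68.1% of all genes tested. For Pdx1, replicate 2 of small intestine (8.80) lies between the 2 distal stomach values (8.73 and 8.84).

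Genes of the gastric glands were mostly high in the fetal stomach and low in the intestine: of 16 tested, 11 were higher in distal stomach and 2 lower, with a median difference of 3.86. Pepsinogen C (Pgc), an acid protease precursor, read 12.92 and 13.15 against 5.04 and 5.33 (difference 7.85, SE 0.26, adjusted p = 3.7e-15). Pga5, another pepsinogen, read 14.75 and 14.36 against 8.22 and 7.06 (difference 6.91). Cblif, the gastric intrinsic factor that carries vitamin B12, read 13.26 and 12.35 against 4.70 and 5.03 (difference 7.94). All 3 secreted products were high on both stomach arrays and low on both intestinal arrays.

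Transcripts of both subunits of the proton pump that acidifies the stomach were higher in distal stomach. The beta subunit Atp4b read 14.35 and 13.38 in distal stomach and 7.25 and 7.41 in small intestine (difference 6.53, SE 0.25, adjusted p = 2.5e-14). The catalytic subunit Atp4a read 12.72 and 10.03 against 5.89 and 5.17 (difference 5.84, SE 0.50, adjusted p = 5.6e-09). Neither overlapped between tissues, although the 2 stomach arrays differed widely in Atp4a. The potassium channel subunit Kcne2, which serves acid secretion, differed by 5.61, and Car2, a carbonic anhydrase, by 4.39.

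Members of the gland list that did not follow were few. Lipf, gastric lipase, was lower in distal stomach, at 4.57 and 4.37 against 7.91 and 7.85 (difference -3.41, SE 0.28, adjusted p = 4e-09). Hdc, the enzyme that makes histamine, was lower by a smaller margin (difference -0.85), and was not called without distal stomach replicate 2 (adjusted p = 0.18) or small intestine replicate 2 (adjusted p = 0.12). Aqp4, Slc4a2 and Clic6 were not called.

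Transcription factors of the stomach and pylorus were higher in distal stomach for 11 of 15 tested, and none was lower; their median difference was 1.41, and 7 were called in a fit of the 4 arrays alone. Sox2, which marks the foregut, read 11 and 11.41 in distal stomach and 6.17 and 7.25 in small intestine (difference 4.50, SE 0.40, adjusted p = 1.1e-08). Sox21, a related factor, had the larger difference, at 11.57 and 12 against 4.91 and 5.59 (6.54). Barx1, a homeobox gene of the stomach mesenchyme, read 10.46 and 10.77 against 6.89 and 7.21 (difference 3.57, SE 0.25, adjusted p = 2.2e-10). All 3 were high on the stomach arrays and low on the intestinal ones.

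Isl1, a homeobox factor of the pyloric region, read 12.72 and 12.89 in distal stomach and 8.63 and 9.43 in small intestine, a difference of 3.78. Nkx6-3, a homeobox factor of the antrum, read 10.41 and 10.87 against 5.34 and 8.92, a difference of 3.51. The intestinal values of Nkx6-3 were far apart, replicate 2 being the array with other gastric transcripts, but did not reach those of the stomach.

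Intestinal transcription factors formed the counterpart: 12 of 21 were lower in distal stomach, 1 was higher and the median difference was -2.06. Cdx2, the homeobox gene that specifies intestine, read 6.54 and 6.01 in distal stomach and 13.88 and 13.66 in small intestine (difference -7.50, SE 0.25, adjusted p = 3.9e-15). Its relative Cdx1 read 5.80 and 5.32 against 11.62 and 11.34 (difference -5.92, SE 0.20, adjusted p = 4e-15). Isx, an intestine-specific homeobox gene, differed by -6.35 and Creb3l3, a membrane-bound factor of lipid metabolism, by -5.74. The 4 were low on both stomach arrays and high on both intestinal arrays.

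Several factors that the intestine uses were shared with the stomach. Hnf4a, a nuclear receptor of endodermal epithelia, read 13.34 and 13.12 in distal stomach and 13.88 and 13.74 in small intestine and was not called (difference -0.57, SE 0.24, adjusted p = 0.0698). Gata4 read 12.23 and 12.13 against 11.69 and 11.94 (difference 0.37, SE 0.25, adjusted p = 0.273). Gata6 read 11.43 and 11.39 against 11.84 and 11.80 (difference -0.41, SE 0.18, adjusted p = 0.0826). A missed threshold does not show equal levels, but each of these differences was small beside those of Cdx1 and Cdx2. Hnf4g, the paralog of Hnf4a, was lower in distal stomach by 3.62 on the log2 scale, at 8.89 and 8.03 against 12.09 and 12.07. Klf5, a factor of proliferating epithelium, was the member called higher (difference 0.50), and it was not called without small intestine replicate 1.

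Pdx1, the homeobox gene of the antrum, duodenum and pancreas, read 8.73 and 8.84 in distal stomach and 7.28 and 8.80 in small intestine. The tissues overlapped, and the Pdx1 difference of 0.75 was not called (SE 0.39, adjusted p = 0.139). It depended on which intestinal array was used: without replicate 1 it was -0.01 (adjusted p = 0.99), and without replicate 2 it was 1.51 (adjusted p = 0.0045).

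Sequences upstream of genes on either side were searched for letters that the intestinal factors are known to bind. The windows were the 250 bases before each RefSeq start (mouse assembly GRCm38.p6), read on both strands. The letters TTTATNG, bound by CDX factors, were in 11.1% of 530 windows of genes at least 4-fold higher in small intestine, in 9.18% of 305 windows of genes at least 4-fold higher in distal stomach and in 6.57% of 13978 windows of all genes tested. CAAAGTNCA, bound by HNF4, was in 4.72%, 0.656% and 1.07% of the same windows. AGATAA, bound by GATA factors, was in 13.6%, 6.89% and 6.16%. Over all 32851 windows, those of genes not tested among them, the shares were 9.81% for TTTATNG, 1.19% for CAAAGTNCA and 9.99% for AGATAA. The CDX and GATA shares thus look larger beside the genes tested than beside all windows. These shares describe windows, of which some belong to the same gene and overlap, and a match is a run of letters and not a site shown to be bound.

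The windows of 6 genes with large differences are printed because each holds such a match; they were chosen after their letters were seen. Each runs 5′ to 3′ along the gene, with the matches in capitals.
Fabp1 (chr6:71199629-71199878, plus strand, 3 CDX matches): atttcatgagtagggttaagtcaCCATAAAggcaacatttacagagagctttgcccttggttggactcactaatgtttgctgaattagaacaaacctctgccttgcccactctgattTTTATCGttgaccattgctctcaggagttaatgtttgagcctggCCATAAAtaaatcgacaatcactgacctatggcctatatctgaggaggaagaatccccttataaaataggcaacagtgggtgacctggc
Fabp2 (chr3:122894822-122895071, plus strand, 1 HNF4 match and then 1 CDX match): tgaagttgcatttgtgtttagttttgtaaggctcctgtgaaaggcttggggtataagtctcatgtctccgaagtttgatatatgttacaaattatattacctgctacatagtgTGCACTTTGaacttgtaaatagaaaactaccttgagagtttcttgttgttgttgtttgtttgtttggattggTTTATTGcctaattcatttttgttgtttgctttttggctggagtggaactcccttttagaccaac
Apoa4 (chr9:46240594-46240843, plus strand, 1 HNF4 match): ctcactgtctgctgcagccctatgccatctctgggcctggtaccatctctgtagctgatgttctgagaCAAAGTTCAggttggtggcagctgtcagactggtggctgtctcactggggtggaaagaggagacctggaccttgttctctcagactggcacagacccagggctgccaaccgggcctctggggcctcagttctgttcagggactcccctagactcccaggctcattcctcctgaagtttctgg
Lct (chr1:128328319-128328568, minus strand, 2 GATA matches): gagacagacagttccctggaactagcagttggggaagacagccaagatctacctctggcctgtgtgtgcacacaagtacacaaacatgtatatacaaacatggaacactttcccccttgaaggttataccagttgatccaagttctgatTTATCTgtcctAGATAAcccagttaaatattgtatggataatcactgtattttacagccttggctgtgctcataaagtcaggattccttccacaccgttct
Muc2 (chr7:141690090-141690339, plus strand, 2 GATA matches): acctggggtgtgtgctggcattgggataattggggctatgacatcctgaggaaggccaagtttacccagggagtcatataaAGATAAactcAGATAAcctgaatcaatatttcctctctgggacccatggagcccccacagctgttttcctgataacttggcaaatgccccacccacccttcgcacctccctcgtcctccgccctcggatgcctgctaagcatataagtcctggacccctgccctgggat
Cldn18 (chr9:99717268-99717517, minus strand, 2 GATA matches, 1 of 2 windows of the gene): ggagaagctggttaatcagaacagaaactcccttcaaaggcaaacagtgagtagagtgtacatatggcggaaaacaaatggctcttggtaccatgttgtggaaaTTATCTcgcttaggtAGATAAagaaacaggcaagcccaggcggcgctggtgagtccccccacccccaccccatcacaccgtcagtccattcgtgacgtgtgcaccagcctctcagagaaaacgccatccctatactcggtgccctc

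Genes on both sides of the comparison hold GATA matches in these windows: Lct and Muc2 were higher in small intestine and Cldn18 in distal stomach. In Fabp1 the CDX matches began 227, 133 and 89 bases before the start, and in Fabp2 the HNF4 match began 137 and the CDX match 65 bases before it. The HNF4 match of Apoa4 began 182 bases before the start.

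Fabp1, Fabp2 and Apoa4 belong to the lipid handling of enterocytes. Fatty acid binding protein 2 (Fabp2), a carrier inside enterocytes, read 9.89 and 8.64 in distal stomach and 14.67 and 14.65 in small intestine (difference -5.39, SE 0.35, adjusted p = 1e-10). Apoa4, an apolipoprotein of chylomicrons, read 9.75 and 8.20 against 15.28 and 15.20 (difference -6.26, SE 0.36, adjusted p = 1.4e-11). Fabp1 read 12.01 and 11.24 against 14.56 and 14.54 (difference -2.92, SE 0.72, adjusted p = 0.00286). In all 3 the intestinal arrays lay close together and above the stomach arrays, where replicate 1 was the higher.

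Of 24 genes of lipid uptake and chylomicron assembly, 22 were lower in distal stomach and 1 was higher, with a median difference of -2.86. Apoc3, an apolipoprotein, had the largest difference of the list, at 6.11 and 5.88 against 15.00 and 14.81 (difference -8.91, SE 0.33, adjusted p = 1.4e-14). Apoc2, the cofactor of lipoprotein lipase, differed by -6.63, Lrat, which esterifies retinol, by -5.79, and Apob, the structural protein of the chylomicron, by -5.50. The transfer protein Mttp, which loads lipid onto Apob, was lower by 3.62. Colipase (Clps), a cofactor of pancreatic lipase, was the member called higher, at 13.31 and 12.22 in distal stomach and 9.75 and 11.09 in small intestine (difference 2.34, SE 0.38).

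Brush border genes were lower in distal stomach for 15 of 17 members, with a median difference of -1.99. The microvillar adhesion proteins gave the largest values: the protocadherin Cdhr5 read 5.44 and 5.76 against 13.05 and 12.67 (difference -7.26, SE 0.26, adjusted p = 6.6e-15), and its partners Cdhr2, Ush1c and Myo7b differed by -5.57, -5.04 and -6.70. Villin (Vil1), which bundles the actin core of the microvillus, differed less, at 11.97 and 11.55 against 13.79 and 13.70 (difference -1.99, SE 0.22, adjusted p = 2.1e-07). Myo1a, a motor of the same core, was not called, at 11.99 and 11.73 against 11.51 and 11.48. Vil1 and Myo1a thus read between 11.48 and 13.79 on all 4 arrays, whereas Cdhr5 was high on the intestinal arrays only. The calcium channel Trpv6 ran the other way, at 11.68 and 11.52 in distal stomach and 6.15 and 6.42 in small intestine (difference 5.32, SE 0.36, adjusted p = 1.5e-10).

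Digestive enzymes had the lowest median of the 36 lists, -5.29, with 13 of 14 members lower in distal stomach. The list held 20 genes, of which 17 had a named probe set and 14 were tested. A member low elsewhere could pass the filter through the small intestine arrays alone, which favours such a count and median. Lactase (Lct), the enzyme of milk sugar, read 5.21 and 5.80 against 14.20 and 14.06 (difference -8.63, SE 0.29, adjusted p = 4.2e-15). The metalloprotease meprin beta (Mep1b) differed by -8.23, the starch enzyme maltase-glucoamylase (Mgam) by -7.42 and the peptidase neprilysin (Mme) by -7.00. Intestinal alkaline phosphatase (Alpi) read 7.92 and 8.06 against 13.65 and 13.41. The tissues did not overlap for these 5 enzymes, as for 68.1% of all genes tested. Plb1, a brush border phospholipase, was called higher in distal stomach on the strength of replicate 1 (9.35 and 6.21 against 6.11 and 5.76), and was not called without it or without small intestine replicate 2.

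Of 27 nutrient and bile acid transporters, 25 were lower in distal stomach, 1 was higher and the median difference was -3.97. The phosphate carrier Slc34a2 read 5.31 and 5.01 against 13.74 and 13.23 (difference -8.33, SE 0.43, adjusted p = 2.3e-12). The cystine carrier subunit Slc7a9 differed by -7.71 and the basolateral glucose carrier Slc2a2 by -7.55. The apical glucose carrier Slc5a1 differed by -6.14, the neutral amino acid carrier Slc6a19 by -6.76, and the chloride exchanger Slc26a3 by -6.64. Slc51a and Slc51b, the subunits of the basolateral bile acid carrier, differed by -5.99 and -5.94. Cybrd1, an iron reductase, was the member called higher, at 12.11 and 12.38 against 10.67 and 10.75 (difference 1.53, SE 0.23). S100g, a calcium binding protein, was not called (difference -0.59, adjusted p = 0.102).

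**Figure D3:**
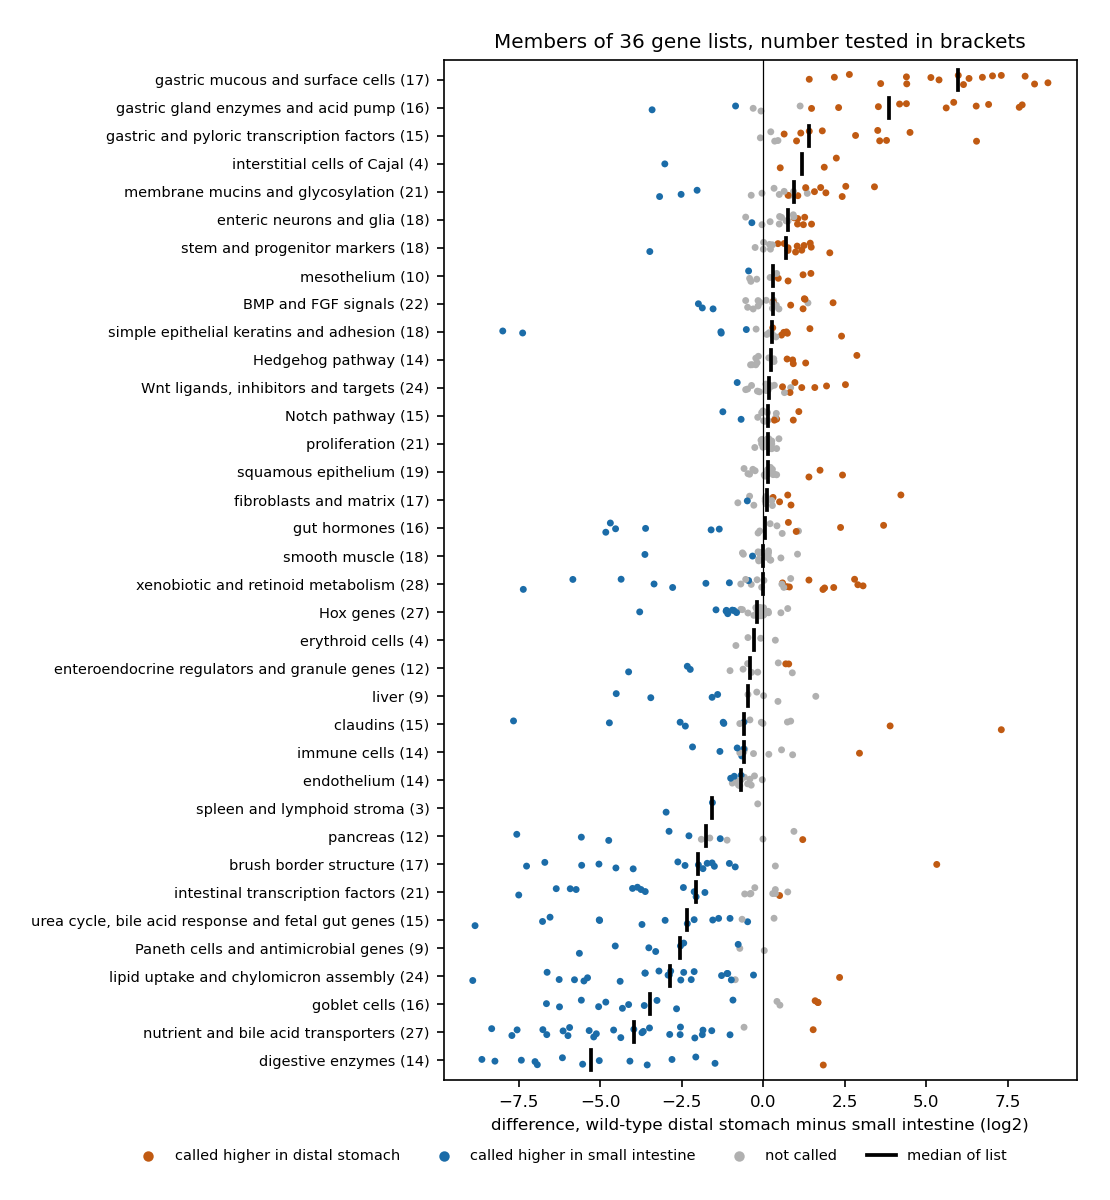
Each point is 1 gene of 1 of 36 lists (y axis, number tested in brackets) at its difference between wild-type distal stomach and small intestine (x axis, log2); orange points were called higher in distal stomach, blue points higher in small intestine, grey points neither, and black bars are list medians. Medians run from 5.98 for gastric surface genes to -5.29 for digestive enzymes, and the lists for proliferation and smooth muscle lie near 0.

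Goblet cell genes went both ways. Of 16 tested, 11 were lower in distal stomach, 3 were higher and the median difference was -3.46. Muc2, the gel-forming intestinal mucin, read 6.17 and 5.90 against 11.25 and 10.92 (difference -5.05, SE 0.43, adjusted p = 5.6e-09). Reg4, a secreted lectin, and the membrane mucin Muc13 differed by -6.65 and -6.25, and Zg16, a lectin of mucus granules, by -5.58. The 3 called higher were the secretory cell regulators Foxa3 (1.68), Spdef (1.67) and Creb3l1 (1.59). Spdef, for example, read 11.25 and 10.94 in distal stomach and 9.38 and 9.47 in small intestine. Atoh1, which commits intestinal cells to the secretory lineage, ran with the mucins, at 4.53 and 4.53 against 8.23 and 8.13 (difference -3.65, SE 0.23).

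Genes listed as Paneth cell and antimicrobial were lower in distal stomach for 7 of 9 members tested, out of 16 listed. Whether their RNA came from Paneth cells was not tested. Reg3b, a bactericidal lectin, read 4.92 and 5.0 against 9.65 and 11.55 (difference -5.64, SE 0.42, adjusted p = 7.1e-10), and Reg1, a related lectin that the pancreas also makes, read 5.94 and 5.34 against 8.43 and 11.94 (-4.54). Both were higher on small intestine replicate 2, the array rich in pancreatic RNA. On the small intestine arrays labelled knockout Ctrb1 read 12.74 on replicate 1 and 7.16 on replicate 2. There Reg3b read 10.98 and 11.17 and Reg1 9.87 and 9.95. The part of pancreatic RNA in these values was not tested. Lysozyme 1 (Lyz1) differed by -0.77 and was called with all arrays, but not without distal stomach replicate 1 or either small intestine array.

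The sugar-building enzymes and membrane mucins leaned to the stomach: 9 of 21 were higher there and 3 lower. A4gnt, which caps gastric gland mucin, read 10.24 and 10.03 against 6.64 and 6.82 (difference 3.41, SE 0.41, adjusted p = 7.9e-07). Muc4, a membrane mucin, differed by 2.53 and the fucosyltransferase Fut4 by 2.42. B4galnt2, a blood group glycosyltransferase, was lower, at 10.37 and 7.34 in distal stomach and 11.99 and 12.07 in small intestine (difference -3.18).

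Hormone genes went both ways. Of 16 tested, 4 were higher in distal stomach and 6 lower, beside 19.5% and 18.8% of all genes. Gastrin (Gast), the antral hormone that drives acid secretion, read 11.26 and 10.21 against 6.44 and 7.65 (difference 3.69, SE 0.33, adjusted p = 1.1e-08). Grp, the peptide that releases gastrin, differed by 2.37. On the intestinal side secretin (Sct) read 8.06 and 7.85 against 12.78 and 12.80 (difference -4.83, SE 0.20, adjusted p = 7.8e-14). Cholecystokinin (Cck) differed by -4.69, Gip by -4.53 and neurotensin (Nts) by -3.61.

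Other hormones of both tissues were not called. Ghrelin (Ghrl) read 13.21 and 11.34 in distal stomach and 11.73 and 11.98 in small intestine, and somatostatin (Sst) read 10.43 and 8.49 against 9.58 and 9.55. In each the stomach arrays lay on either side of the intestinal ones, replicate 1 above and replicate 2 below. Among 12 endocrine regulators and granule genes the counts were near the background of 19.5% higher and 18.8% lower over all genes. The 3 called lower were the monoamine carrier Slc18a1 (-4.13), the serotonin enzyme Tph1 (-2.33) and chromogranin B (Chgb, -2.24). The 2 called higher were Ddc (0.78), an amine enzyme, and Insm1 (0.69), a regulator whose call was lost without distal stomach replicate 2 or either small intestine array. Without distal stomach replicate 1, 6 members of this list were called lower.

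Claudins, the proteins that set the permeability of tight junctions, differed in kind. Of 15 tested, with the claudin domain gene Cldnd1 counted among them, 2 were higher in distal stomach and 7 lower. Cldn18 read 12.56 and 12.41 against 4.85 and 5.52, and Cldn6, a fetal claudin, 10.28 and 11.38 against 6.25 and 7.63. The pore-forming Cldn2 read 4.87 and 5.46 against 12.94 and 12.72 (difference -7.66, SE 0.30, adjusted p = 3.1e-14). Cldn8 differed by -4.72 and Cldn15, a sodium pore of the intestine, by -2.55. The tissues did not overlap for these claudins, as for 68.1% of all genes tested.

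Of 18 genes of simple epithelial keratins and adhesion 7 were higher and 5 lower, beside 19.5% and 18.8% of all genes. E-cadherin (Cdh1) read 13.04 and 13.22 in distal stomach and 12.95 and 12.94 in small intestine, and Epcam 13.75 and 13.64 against 13.95 and 13.89; neither was called. The simple keratins Krt8 and Krt18 were higher in distal stomach by 0.63 and 0.74 with small SEs of 0.09 and 0.10. At the other extreme, Cdh17, the cadherin of intestinal epithelium, read 4.35 and 4.95 against 12.67 and 12.62 (difference -7.99, SE 0.27, adjusted p = 3.9e-15). Lgals2, a galectin, differed by -7.38.

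Signalling genes had small median differences: 0.24 for Hedgehog, 0.17 for Wnt, 0.29 for BMP and FGF and 0.13 for Notch genes. The counts called in these lists stand beside 19.5% of all genes called higher and 18.8% called lower. Sonic hedgehog (Shh), an epithelial signal to the underlying mesenchyme, read 11.27 and 11.95 in distal stomach and 7.96 and 9.52 in small intestine (difference 2.87, SE 0.46, adjusted p = 3.7e-05). Indian hedgehog (Ihh) read 11.54 and 11.33 against 9.99 and 10.28 (difference 1.30, SE 0.24, adjusted p = 0.00015). Both ligands were higher on the 2 stomach arrays. Of the 14 Hedgehog genes 5 were higher and none lower, the others being the receptor partners Boc (0.92) and Cdon (0.90) and the transducer Smo (0.73). The call of Smo was lost without distal stomach replicate 2 or small intestine replicate 1, and 2 genes of the list were called lower without distal stomach replicate 2. The pathway's targets were not called: the receptor Ptch1 read 12.90 and 13.25 against 13.23 and 13.38, and Gli1 read 9.27 and 9.65 against 9.0 and 9.29.

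Of 24 Wnt genes 7 were higher in distal stomach and 1 lower. The secreted Wnt inhibitors Sfrp4 and Sfrp2 differed by 2.52 and 1.58, and the ligands Wnt4, Wnt5b and Wnt11 by 1.94, 1.18 and 0.97. Axin2, a target of canonical Wnt signalling, was the 1 called lower, at 9.59 and 9.57 against 10.43 and 10.33 (difference -0.80, SE 0.14, limma adjusted p = 0.00011). This is 1 gene, and Wnt activity itself was not tested. Among 22 BMP and FGF genes 6 were higher and 3 lower. The BMP targets Id1 and Id3 differed by 2.14 and 1.28 and the ligand Bmp2 by 1.26, whereas the ligand Bmp7 (-1.99), the BMP antagonist Grem1 (-1.87) and the FGF coreceptor Klb (-1.54) were lower. Notch genes were called near the background, with 4 of 15 higher and 2 lower; the largest was the ligand Dll1, at 8.75 and 9.30 against 10.31 and 10.22 (difference -1.24, SE 0.20). 1 Notch gene was called higher without small intestine replicate 1 and 2 without distal stomach replicate 2, and 1 was called lower without distal stomach replicate 1 or small intestine replicate 2.

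Markers of stem and progenitor cells were higher in distal stomach for 11 of 18 members and lower for 1, and the median difference was 0.70. Olfm4, a secreted marker of crypt progenitors in the adult gut, read 12.68 and 12.36 in distal stomach and 10.74 and 10.23 in small intestine (difference 2.04, SE 0.33, adjusted p = 4.6e-05). Ephb3, a receptor of crypt cells, differed by 1.47, Prom1, a membrane protein of progenitors, by 1.44, and the transcription factor Sox9 by 1.25. Lgr5, the receptor that marks crypt base stem cells, read 8.93 and 8.01 against 7.19 and 7.37 (difference 1.18, SE 0.40, adjusted p = 0.0221). The stomach values of Lgr5 were above both intestinal ones, but it was not called without distal stomach replicate 1 (0.73, adjusted p = 0.24) or without either small intestine array. Hopx was the exception, at 7.36 and 7.39 against 10.94 and 10.78 (difference -3.48, SE 0.20, adjusted p = 1.7e-11). Proliferation genes were not called in either direction for any of 21 members by limma; without distal stomach replicate 1, 2 were called higher. Mki67, the proliferation marker, read 12.53 and 12.85 against 12.32 and 12.53. Within each tissue 21 of 21 proliferation genes were higher on replicate 2 than on replicate 1.

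Hox genes, which record position along the body axis, were lower in distal stomach for 8 of 27 members and higher for none, though 1 was called higher without distal stomach replicate 1. Hoxc8 stood out, at 5.65 and 5.23 in distal stomach and 9.48 and 8.98 in small intestine (difference -3.79, SE 0.54, adjusted p = 9.3e-06). Hoxb6 differed by -1.45, Hoxa9 by -1.14, Hoxd8 by -1.13 and Hoxa7 by -1.09. Hoxd8 was not called without small intestine replicate 1. The anterior genes Hoxa3, Hoxb3 and Hoxb4 were not called, with differences of -0.09, 0.01 and 0.02. The posterior genes Hoxd13 and Hoxa10 read between 3.91 and 4.41 on the 4 arrays, against means of 11.15 and 12.02 in wild-type large intestine.

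Metabolic genes divided by pathway. Genes of the urea cycle, the bile acid response and fetal endocytic uptake were lower in distal stomach for 13 of 15 members and higher for none (median -2.33). Ornithine transcarbamylase (Otc) read 4.06 and 4.27 against 13.08 and 12.93 (difference -8.84, SE 0.36, adjusted p = 6.6e-14), and Cps1, the entry enzyme of the same cycle, differed by -6.54 and its activator enzyme Nags by -5.02. Cubilin (Cubn) and its partner Amn, an uptake receptor pair, differed by -6.77 and -5.03. The stomach arrays were uniformly low for these 5 genes.

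Xenobiotic and retinoid genes went both ways, with 10 of 28 higher and 8 lower. The glutathione transferase Gsta4 read 14.56 and 14.53 in distal stomach and 10.95 and 12.02 in small intestine (difference 3.06, SE 0.19, adjusted p = 2.7e-11). The glucuronosyltransferase Ugt2b5 read 4.75 and 4.96 against 12.45 and 11.97 (difference -7.36, SE 0.38), and the carboxylesterase Ces2e differed by -5.84. Aldh1a3, which makes retinoic acid, read 6.44 and 5.89 against 10.44 and 10.60 (difference -4.36, SE 0.34). Such families contain close paralogs, and probe sets may share signal among them.

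Few smooth muscle genes were called: of 18 tested, 2 were lower in distal stomach and none higher. Actin alpha 2 (Acta2) read 13.93 and 14.01 against 13.72 and 13.90. Ldb3, a Z-disc protein, was the large exception, at 8.67 and 8.47 against 12.21 and 12.20 (difference -3.63, SE 0.29, adjusted p = 1.7e-09). The other, Mylk (-0.33), was not called without distal stomach replicate 1 or without either small intestine array.

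Interstitial cells of Cajal, the pacemakers of the gut, are marked by Kit and Ano1. Kit read 11.30 and 11.50 in distal stomach and 9.04 and 9.27 in small intestine (difference 2.24, SE 0.20, adjusted p = 1.3e-08). Ano1, which other cells also express, read 12.89 and 12.97 against 11.09 and 11.04 (difference 1.87, SE 0.09, adjusted p = 9.6e-13). Both were higher on the stomach arrays. Thbs4, a matrix protein, was lower, at 5.73 and 5.72 against 8.45 and 9.05 (-3.02). Among 18 genes of enteric neurons and glia 6 were higher and 1 lower; Hand2, a factor of enteric neurons and muscle, differed by 1.48. The number called higher was 2 without distal stomach replicate 2 or without small intestine replicate 1, and the number called lower was 0 without distal stomach replicate 1 or either small intestine array.

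Of 17 fibroblast and matrix genes 5 were higher and 1 lower, near the background of 19.5% and 18.8% of all genes. The number of endothelial genes called lower, given below, is also near that background. The mesothelial and immune counts stand beside the same shares. Mfap5, an elastic fibre protein, read 10.94 and 10.16 in distal stomach and 6.57 and 6.08 in small intestine (difference 4.22, SE 0.39, adjusted p = 2.2e-08). The number called higher was 2 without distal stomach replicate 2 and 3 without small intestine replicate 2. The mesothelial genes Msln and Wt1 differed by 1.46 and 1.22, and 4 of 10 in that list were higher and 1 lower. That became 2 higher without distal stomach replicate 1 or small intestine replicate 2, and 0 lower without replicate 2 of either tissue. Endothelial genes were lower for 3 of 14 and higher for none, and none was called without distal stomach replicate 2. Of 14 immune genes 6 were lower, led by the pan-leukocyte Ptprc (6.29 and 6.65 against 8.56 and 8.73, difference -2.17), and Cd14, a receptor for bacterial lipid, was higher (9.93 and 9.86 against 6.94 and 6.95, difference 2.95). The number of immune genes called lower was 2 without distal stomach replicate 2 or without small intestine replicate 1, and 3 without small intestine replicate 2. None of 4 erythroid genes was called by limma; without distal stomach replicate 2, 1 was called lower.

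Of genes from neighbouring organs, 6 of 12 in the pancreas list were lower in distal stomach and 1, Cela1, was higher, a call lost without small intestine replicate 1 (adjusted p = 0.098). The number lower was 2 without small intestine replicate 2 and 3 without distal stomach replicate 2. The 2 largest, Spink1 (7.99 and 5.41 against 14.32 and 14.20) and Zg16, are also made by the intestinal lining. Liver genes were lower for 4 of 9 members, led by Serpina1b (-4.51). That number was 2 without distal stomach replicate 1 and 1 without small intestine replicate 1. Of 3 genes of spleen and lymphoid stroma, Cxcl13, a B cell chemokine, was lower by 2.98 on the log2 scale and Nkx2-3, a factor of spleen and midgut mesenchyme, by 1.56. The squamous genes called higher differed by 2.43 (Krt15), 1.74 (Dsc3) and 1.40 (Trp63). Trp63 was not called when the mean of its probe sets was used.

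Some of the 15 largest differences on each side lay outside the lists. On the stomach side Gsdmc2, a gasdermin, read 13.02 and 12.51 against 4.67 and 4.86 (difference 8.0), and Mal, a membrane sorting protein, 13.24 and 13.33 against 5.67 and 6.02 (7.44). Slc5a5, the iodide carrier of thyroid and stomach, differed by 6.76 and Bpifb1, a secreted protein of mucosal surfaces, by 6.37. A second, dimmer probe set of Bpifb1 differed by 8.98. On the intestinal side Mptx1, a pentraxin, had the largest difference of all, at 4.62 and 4.77 against 14.18 and 13.99 (difference -9.39, SE 0.33, adjusted p = 6.2e-15). Clca4b, a secreted accessory of chloride channels, differed by -8.20, the lipid hydrolase Aadac by -8.15, the peptide Leap2, which opposes ghrelin, by -7.85, and Hao2, a peroxisomal oxidase, by -7.81. Whether the low values are above background is not known, since no detection calls were used here.

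The same comparison on the 4 arrays labelled knockout, which share no array with the wild-type comparison, divided most of the called genes the same way. There limma called 2166 genes higher in distal stomach, 15.9% of those tested, and 2508 lower, 18.4%, together 34.3%. Of the 2648 genes called higher in wild type 1841 (69.5%) were called higher there, and of the 2554 called lower 2147 (84.1%) were called lower. Of the 307 genes that favoured wild-type distal stomach by 4-fold or more, 301, or 98%, were called higher there too, with a median of 2.45 against 2.83 in wild type. Of the 536 that favoured small intestine to that degree, 536 were called lower in distal stomach there, with medians of -3.29 and -3.34. No gene called in either direction in wild type was called in the opposite direction. On these arrays Cdx2 read 5.54 and 5.81 in distal stomach and 13.68 and 13.60 in small intestine, and Gkn1 read 13.96 and 13.64 against 4.88 and 4.79. Gkn1 was thus low on both of these intestinal arrays.

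A test of the difference between the labelled genotypes called 0 of 13612 genes (0%) by limma, with 211 at an unadjusted p under 0.05, or 1.55%. The difference of differences was 0.47 for Cdx2 (SE 0.35), -0.24 for Gkn1 (SE 1.02) and 0.98 for Shh (SE 0.65). A missed threshold does not show that the genotypes were alike. Without wild-type distal stomach replicate 2 the test called 49 genes, of which 44 had a higher value of distal stomach minus small intestine in wild type than on the arrays labelled knockout. Atp4a, with 12.72 and 10.03 on the wild-type stomach arrays and 10.13 and 10.20 on those labelled knockout, was one of them (2.33, adjusted p = 0.015), as were Muc5b (3.13) and Plb1 (3.71). Those calls appear only with that 1 array left out.

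**Figure D4:**
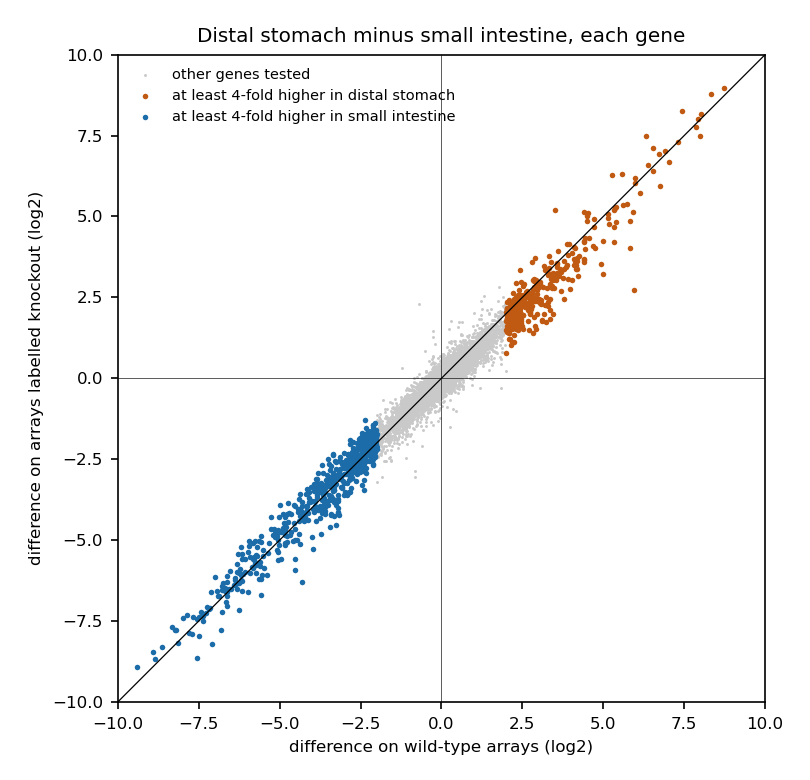
Each point is 1 of the 13612 genes, at its distal stomach minus small intestine difference on the wild-type arrays (x axis, log2) and on the arrays labelled knockout (y axis, log2); orange and blue mark the 307 and 536 genes at least 4-fold different in wild type, and the diagonal marks equal differences. The coloured genes lie along the diagonal in the same quadrant, none of them across an axis.

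The neighbouring regions placed the boundary genes along the gut. Proximal stomach and large intestine were measured on 4 further wild-type arrays, and limma called 2374 genes higher in proximal stomach (17.4%) and 3378 lower (24.8%), together 42.3%. Of the 307 genes at least 4-fold higher in distal stomach 101 (32.9%) were called higher in proximal stomach than in large intestine and 85 (27.7%) lower. Of the 536 at least 4-fold higher in small intestine 254 (47.4%) were called lower in proximal stomach and 77 (14.4%) higher. By group means, 182 of the 307 stomach genes (59.3%) were at least 4-fold above small intestine in neither neighbour, 73 in proximal stomach only, 27 in large intestine only and 25 in both. Likewise 341 of the 536 intestinal genes (63.6%) were at least 4-fold above distal stomach in neither neighbour, 131 in large intestine only, 37 in proximal stomach only and 27 in both.

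Named genes illustrate each class. Gkn1, Pgc, Cldn18 and Atp4b were high in distal stomach alone, with proximal stomach means of 4.46, 5.25, 5.61 and 7.63. Sox2, Barx1, Sox21 and Psca were shared with proximal stomach, where their means were 12.14, 10.39, 10.92 and 12.45. Car2 was shared with large intestine, at 14.34. Spdef was high there too, at 11.55, but was less than 4-fold higher in distal stomach than in small intestine and so belongs to none of these classes. On the other side Cdx2, Muc2, Tff3, Mptx1 and Hao2 were also high in large intestine, at 13.30, 12.87, 14.61, 14.02 and 11.73. Lct, Apoc3, Slc2a2 and Leap2 were high in small intestine alone, with large intestine means of 5.34, 6.87, 4.20 and 5.38. A last class was low in distal stomach and high on both of its sides: Hoxc8 had means of 12.30 in proximal stomach and 9.23 in small intestine, and Slc15a1, the peptide carrier, 11.77 and 12.11. Prdm1, a repressor active in the fetal gut, had 11.71 and 12.23 there, and Hopx 13.51 and 10.86.

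**Figure D5:**
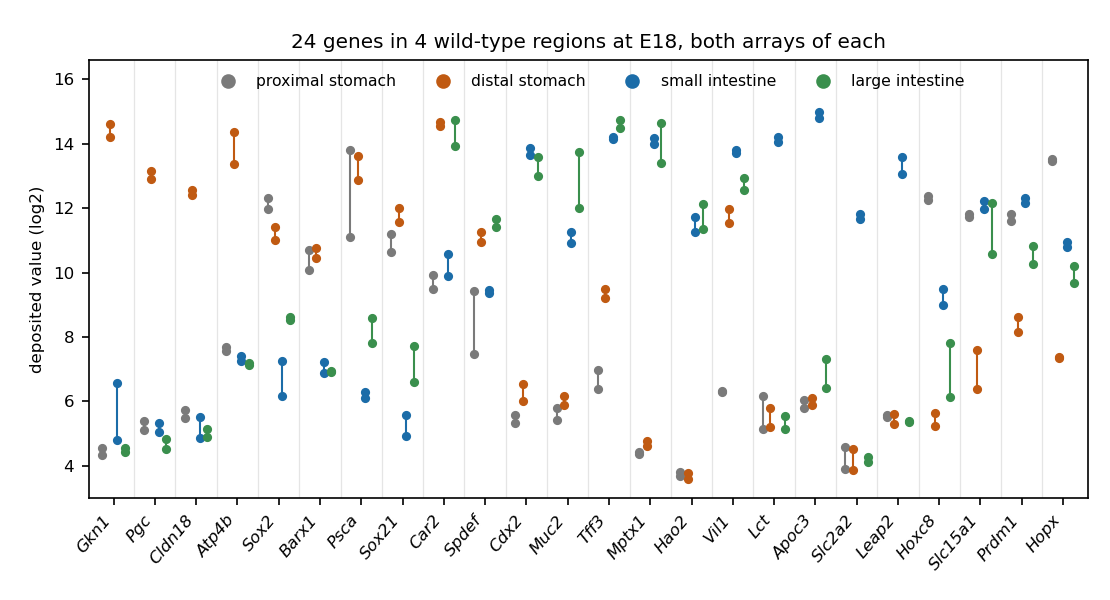
Deposited log2 values (y axis) of 24 genes on both wild-type arrays of proximal stomach (grey), distal stomach (orange), small intestine (blue) and large intestine (green) at E18, each pair of arrays joined by a line. From left to right the genes are high in distal stomach alone, shared with proximal stomach or large intestine, intestinal in both regions, high in small intestine alone, and low in distal stomach with higher values on either side.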

How the data were processed

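RNA was extracted with Trizol, labelled with a 3' IVT express kit and hybridised to mouse 430 2.0 arrays, per the labels' protocols. The deposited values are on a log2 scale (2.98 to 15.4). The submitters' processing notes name Affymetrix Expression Console and Partek; how probes were summarized and normalized is not stated in the labels. Such values have no depth, no detection calls were used, and precision is limited by the number of arrays.

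After 64 control probe sets were set aside, 45037 were left, of which 34945 carried 1 gene symbol, 932 several and 9160 none. A probe set was kept if above the array's median on at least 2 of 28 arrays, and each gene took its brightest kept probe set. A gene high in 1 tissue alone could pass through the arrays of that tissue, which favours large differences among list members tested. limma 3.58.1 (R 4.3.3) was fitted to 13612 genes over 28 arrays in 14 groups with a variance trend, 14 residual degrees of freedom and Benjamini-Hochberg adjustment over all genes; genes below an adjusted p of 0.05 were called. For 2 arrays against 2 the smallest p of an exact permutation is 0.333. In simulated data 24%, 82%, 98% and 100% of genes changed by 0.5, 1, 2 and 3 were recovered in the wild-type comparison of 13612 genes (50 genes of each size). The labels do not say that replicate numbers pair the samples, and the main fit did not pair them.

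The members and the 36 gene lists (706 genes, 575 tested) were chosen with earlier results of these data known. Genes are named if among the 15 largest differences each way (arrays not overlapping, clone names and sex-linked genes passed over), among the 5 largest called in a list, in a set of 20 markers, or a defining marker that was not called; other named genes, the genes of the 4-region plot among them, were chosen after their values were seen. Promoter letters came from RefSeq. Alternatives changed the filter, scaling, arrays fitted, weights, block, probe choice, RNA quality covariate and trend, and left out each array.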

Additional observations from a re-analysis of the deposited data

How the results depend on the processing

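The 2648 and 2554 genes called higher and lower in wild-type distal stomach stayed within 1.5 times of those counts under every alternative but 1: without wild-type small intestine replicate 1, 1573 were higher. Leaving out 1 array gave 1573 to 2350 higher and 1807 to 2442 lower, 3242 to 3892 calls on the arrays labelled knockout, 4585 to 5106 between proximal stomach and large intestine, and 0 to 49 for the difference between genotypes. A fit of only the 4 arrays gave 1822 higher and 2034 lower, and centring each array on its median gave 2333 and 2758. The median of all genes moved from 0.057 to 0.017 with centring and to 0.064 with quantile normalization. Of 173 named genes 142 kept their call under all 15 alternatives, among those that tested them. Of 326 list genes called, 76 lost the call in at least 1 case when an array of the comparison was left out. The Pdx1 difference was -0.01 without wild-type small intestine replicate 1; the cause was not tested. Of 1080 counts of list members under alternatives, chosen after seeing the data, 96 moved by over 1.5 times. With the replicate number as a block, 2654 genes were higher and 2566 lower. The labels give the arrays no more than a shared number. Across genes, the deviation of replicate 1 from its group mean correlated between distal stomach and small intestine. The correlation was 0.333 in wild type and 0.349 on the arrays labelled knockout. Eif2s3y and 21 of 21 proliferation genes moved with the number in both wild-type tissues. What the shared number stands for was not tested. The probe sets of 6296 genes with several kept gave opposite calls for 10 genes, none of them among the 173.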

Other observations

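Some gene families, grouped by the stem of their symbols, also divided between the tissues. The families were picked after their values were seen and have no test as families. Some of their members, such as Krt15, Slc34a2 and Cxcl13, are also in the lists and are counted again here. Of 11 acyl-CoA thioesterases (Acot), which release fatty acids from coenzyme A, 9 were lower in distal stomach and none higher, as were 9 on the arrays labelled knockout. Acot3 read 4.18 and 4.03 in distal stomach and 10.94 and 10.54 in small intestine, a difference of -6.63. Of 17 chemokines 8 were lower and 2 higher. Ccl25, which draws lymphocytes to the small intestine, read 8.90 and 8.87 against 13.82 and 13.72 (difference -4.88), while Cxcl15 (2.80) and Ccl20 (0.91) were higher in distal stomach.

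Among the families picked, the intraflagellar transport genes, the Cfap genes and the synaptotagmins had more members called higher in distal stomach than lower. Of 14 intraflagellar transport genes 9 were higher and none lower in distal stomach, with a median difference of 0.43, and 6 were higher on the arrays labelled knockout. Of 11 Cfap genes 6 were higher and none lower, with 5 higher and 1 lower on the arrays labelled knockout. Cfap69 read 11.70 and 11.11 against 8.50 and 8.53. Of 13 synaptotagmins, sensors for membrane fusion, 7 were higher and none lower, and 5 were higher on the arrays labelled knockout. Syt16 read 8.33 and 7.47 against 3.93 and 4.26 (difference 3.80). Other families were counted as well. Of 30 sorting nexins 4 were higher and 12 lower, and of 33 cytochromes P450 7 were higher and 12 lower. Of 273 solute carriers 55 were higher and 107 lower. Of 27 keratins 11 were higher and none lower, and of 10 frizzled receptors 6 were higher and 1 lower. Beside these, 19.5% of all genes tested were called higher and 18.8% lower.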
